A study of Mus musculus with 10 samples.

Results

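Pramel6, Pramel7, Elobl and 2210409E12Rik are 4 mouse genes that lie as a pair on chromosome 2 (Pramel6 and Pramel7) and as a pair on chromosome 11 (Elobl and 2210409E12Rik). They were taken as every probe set that the platform annotation pairs with exactly 1 of these 4 symbols, which gave 6 probe sets among the 34945 that carry a single gene symbol, and 4 genes among the 13251 that could be tested. The genes were chosen by their measured signals in these same arrays, high in the haploid stem cells and low in the diploid ones, so their levels are given below as a description, without a test. RNA of sorted cells was measured on 10 Affymetrix mouse expression arrays. The group AG-haESC holds 5 haploid, androgenetic stem cell lines, whose genome is paternal only, of C57BL/6J background at passages 12 to 15, each on 1 array: AGH-OG-1 to AGH-OG-4 carry an Oct4-EGFP transgene and AGH-EG-1 an Actin-EGFP transgene. E14 is a diploid, male stem cell line of the 129/Sv strain, wild type, at passage 17 (3 arrays), and MEF are fibroblasts of male d13.5 B6D2F1 embryos, wild type, at passage 2 (2 arrays). All cells were stained with a Hoechst DNA dye and sorted, AG-haESC for the haploid 1n peak and E14 and MEF for the diploid 2n peak. The labels name CHIR99021, PD0325901 and feeder cells for the haploid lines and give no medium for the other groups. Ploidy, parental origin, strain, transgene, passage and perhaps culture differ together between AG-haESC and E14, so that their parts in any difference cannot be told apart. The E14 arrays are all of the same line, and the spread among them holds no spread between diploid lines.

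The PRAME family is a large mammalian family of leucine-rich repeat proteins that is best known from germ cells, early embryos and tumours. Some of its proteins serve as substrate receptors of cullin-RING ubiquitin ligases, where the adaptor pair elongin B and elongin C links the receptor to cullin 2. In the mouse, Pramel6 and Pramel7 are genes of the preimplantation embryo, and Pramel7 supports embryonic stem cell self-renewal downstream of LIF and STAT3 and directs the DNA methylation factor UHRF1 to degradation. Elobl is named for its likeness to elongin B, also known by the older symbol Tceb2l, and 2210409E12Rik is annotated as a transcribed pseudogene.

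The promoters of 3 of the 4 genes are listed by RefSeq on GRCm38.p6, from 250 bases before to 50 bases after the start of the gene, and are shown because these genes were high in the same 5 lines. No promoter was listed for 2210409E12Rik. Each is written 5′ to 3′ on the strand of its gene, and capitals mark a match to a searched motif.
Pramel6, chr2:87506315-87506614, plus strand: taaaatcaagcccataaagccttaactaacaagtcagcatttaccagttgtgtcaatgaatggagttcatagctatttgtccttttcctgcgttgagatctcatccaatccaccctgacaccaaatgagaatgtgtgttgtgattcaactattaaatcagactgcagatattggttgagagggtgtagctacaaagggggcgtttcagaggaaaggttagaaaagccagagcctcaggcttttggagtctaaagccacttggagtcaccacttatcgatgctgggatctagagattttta
Pramel7, chr2:87492369-87492668, minus strand: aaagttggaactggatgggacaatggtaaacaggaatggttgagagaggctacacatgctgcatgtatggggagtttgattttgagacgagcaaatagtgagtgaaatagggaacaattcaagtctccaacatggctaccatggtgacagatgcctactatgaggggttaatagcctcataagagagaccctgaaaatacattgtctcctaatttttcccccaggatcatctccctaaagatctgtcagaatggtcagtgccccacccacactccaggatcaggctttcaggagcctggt
Elobl, chr11:88966882-88967181, minus strand: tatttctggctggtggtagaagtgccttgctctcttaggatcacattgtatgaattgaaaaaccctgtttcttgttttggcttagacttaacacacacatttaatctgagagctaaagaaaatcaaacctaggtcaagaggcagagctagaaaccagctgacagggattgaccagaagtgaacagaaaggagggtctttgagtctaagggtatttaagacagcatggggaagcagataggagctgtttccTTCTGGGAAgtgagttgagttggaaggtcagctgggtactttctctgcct
Both strands were searched for 6 motifs. The STAT motif TTCNNNGAA was the only one found in the 3 windows, at bases 251 to 259 of the Elobl promoter, which begin at the annotated start, and it was present in 8.30% of all 32851 promoters of the same length. The octamer ATGCAAAT was present in 1.74% of them and the ESRRB motif TCAAGGTCA in 0.423%. The E-box, searched as CACGTG, was present in 7.15% of promoters. The GC box was searched as GGGCGG and was present in 35.7%. The TATA box was searched as TATAAA and was present in 13.6%. The windows held few CpG dinucleotides, with 3 in Pramel6, 1 in Pramel7 and 0 in Elobl, against a median of 7 over all promoters. As few CpGs or fewer were found in 31.4%, 14.1% and 5.43% of promoters, respectively.

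Some facts of the whole data set bear on these genes. Values are MAS5 signals on a linear scale, with array medians between 55.9 and 68.0, and a signal below its own array's median was not taken as a measured level. A gene was called where its adjusted p was below 0.05 and its difference at least 2-fold. Of the 13251 genes tested, 8.32% were called between AG-haESC and E14 (4.58% higher and 3.74% lower in AG-haESC), 42.2% between AG-haESC and MEF (19.7% and 22.5%) and 42.1% between E14 and MEF (20.9% and 21.3% in E14). Between AG-haESC and E14, 15.9% of all genes had an adjusted p below 0.05 at any fold, and 30.6% an unadjusted p below 0.05. Of the E14 arrays, E14 replicate 3 stood apart: over genes, Pearson's r of log2 signals was 0.968 between E14 replicates 1 and 2, but 0.925 and 0.922 between E14 replicate 3 and either of them. The differences of the 4 genes from E14 are therefore also given without it, and those of other genes where leaving it out changed a call. All 10 embryonic stem cell markers lay above the array median in every AG-haESC and E14 array, with a summed signal between 103040 and 113050 in AG-haESC and between 102440 and 108790 in E14. Of these markers, Zfp42 alone was called between AG-haESC and E14 (-1.56 ± 0.40, adjusted p = 0.0219), and its adjusted p was 0.0502 when E14 replicate 2 was left out and 0.0532 when E14 replicate 3 was. All 11 measured fibroblast markers lay above the median in both MEF arrays, and their summed signal was 130170 to 160360 in MEF, 2478 to 8707 in AG-haESC and 734 to 1743 in E14, with 7 of the 11 called higher in AG-haESC than in E14; 8 to 10 of them lay above the median in the AG-haESC lines and 4 to 6 in the E14 arrays. The summed signals of macrophage markers were 443 to 602 in AG-haESC and 507 to 569 in E14, and those of primitive endoderm markers 292 to 435 and 239 to 393. Those of 4 measured trophectoderm markers were 3574 to 7488 and 2582 to 2961. In these 3 lists Cd14 (3.41, adjusted p = 0.000486, limma) and Gata3 (5.40, adjusted p = 0.000734), named after their values were seen, were called. Both lay above the median in all AG-haESC lines and below it in all E14 arrays. With E14 put at its array medians, the difference was 0.79, below 2-fold, for Cd14 and 1.56 for Gata3. The calls were 1 of 6 macrophage, 1 of 4 trophectoderm and 0 of 5 primitive endoderm markers tested, beside 8.32% of all genes. The median difference of the macrophage markers was -0.28. The part of these markers in the results below was not tested.

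Pramel6 was read by 2 probe sets, which differed in how far they separated the groups. On 1456270_s_at, the one with the higher mean log2 signal, the linear signal was 760 in AGH-OG-1, 1166 in AGH-OG-2, 1631 in AGH-EG-1, 231 in AGH-OG-3 and 522 in AGH-OG-4. It was 11.4, 28.4 and 28.2 in the E14 arrays, and 19.2 and 1.10 in the MEF arrays. All 5 AG-haESC lines lay above every E14 and MEF array, and all E14 and MEF arrays lay below their own array median. The mean log2 signal was 9.46 ± 1.09 in AG-haESC (SD, n = 5), 4.39 ± 0.75 in E14 (n = 3) and 2.20 ± 2.92 in MEF (n = 2). With E14 and MEF put at their array medians, AG-haESC was at least 10.7-fold higher than E14 and at least 11.1-fold higher than MEF.

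The second Pramel6 probe set, 1456269_at, read 142 in AGH-OG-1, 243 in AGH-OG-2, 351 in AGH-EG-1 and 131 in AGH-OG-4, while AGH-OG-3 stood far lower, at 3.59 on the log2 scale. E14 read 64.9, 65.0 and 27.5 and MEF 22.9 and 61.9, so AGH-OG-3 lay below every E14 and MEF array while the other 4 lines lay above them. On this probe set the difference between AG-haESC and E14 was 1.22 log2 units, 0.81 without E14 replicate 3, and the mean of both probe sets differed by 3.15, where 1456270_s_at alone differed by 5.07 (5.29 without E14 replicate 3). The probe sets thus disagreed on AGH-OG-3 and on the size of the difference. A probe set with the suffix _s_at can share probes with related transcripts, and reads from paralogues such as Pramel6 and Pramel7 may not be fully separate there.

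Pramel7 was also read by 2 probe sets, and on both of them all AG-haESC lines stood above all E14 and MEF arrays. On 1439810_s_at the signal was 367 in AGH-OG-1, 813 in AGH-OG-2, 897 in AGH-EG-1, 84.8 in AGH-OG-3 and 338 in AGH-OG-4. The E14 arrays read 2.25, 31.2 and 6.83 and the MEF arrays 18.0 and 10.4, each below its array median. The lowest line, AGH-OG-3, was the one closest to the array median, which was 62.9 there. The mean log2 signal was 8.56 ± 1.37 in AG-haESC (SD, n = 5), 2.97 ± 1.90 in E14 (n = 3) and 3.77 ± 0.56 in MEF (n = 2). AG-haESC was at least 5.75-fold higher than E14 and at least 5.97-fold higher than MEF. The difference in mean log2 signal from E14 was 5.59, and 5.49 without E14 replicate 3.

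On the other Pramel7 probe set, 1439809_at, the lines read 179, 312, 339, 139 and 194, E14 read 23.5, 3.09 and 17.6 and MEF 26.3 and 31.3. The bounds were smaller there, at least 3.35-fold over E14 and at least 3.48-fold over MEF. The difference in mean log2 signal from E14 was 4.34, or 4.69 without E14 replicate 3. Both probe sets of the gene placed AGH-EG-1 and AGH-OG-2 at the top and AGH-OG-3 at the bottom.

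Elobl was read by 1439055_at, at 1188 in AGH-OG-1, 1623 in AGH-OG-2, 2192 in AGH-EG-1, 796 in AGH-OG-3 and 937 in AGH-OG-4. The E14 arrays read 30.7, 38.4 and 10.2, all below their array medians, and the MEF arrays read 80.7 and 84.5, both above theirs. The AG-haESC lines were clear of both other groups, and MEF lay above E14 without overlap. The mean log2 signal was 10.30 ± 0.59 in AG-haESC (SD, n = 5), 4.52 ± 1.02 in E14 (n = 3) and 6.37 ± 0.047 in MEF (n = 2). AG-haESC was at least 19.2-fold higher than E14, and MEF at least 1.26-fold higher than E14. The difference in mean log2 signal for E14 minus MEF was -1.85, and -1.27 without E14 replicate 3. Between AG-haESC and MEF the difference could be measured on both sides and was 3.93 log2 units, or 15.2-fold. The difference in mean log2 signal between AG-haESC and E14 was 5.78, and 5.19 without E14 replicate 3, the E14 array with the lowest Elobl signal.

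2210409E12Rik was read by 1449344_s_at, which as an _s_at probe set of a pseudogene can also share probes with related transcripts, and a further probe set annotated to both this gene and its neighbour Coil was not used. The signal was 6473 in AGH-OG-1, 7809 in AGH-OG-2, 8729 in AGH-EG-1, 4776 in AGH-OG-3 and 6444 in AGH-OG-4. The E14 arrays read 76.5, 54.6 and 142, of which E14 replicate 2 lay below its array median, and the MEF arrays read 28.5 and 16.0, both below. The 5 lines varied by 1.83-fold from lowest to highest, the narrowest spread among the 6 probe sets, and lay far from both other groups. The mean log2 signal was 12.71 ± 0.33 in AG-haESC (SD, n = 5), 6.39 ± 0.70 in E14 (n = 3) and 4.42 ± 0.59 in MEF (n = 2). The difference from E14 was 6.32 log2 units, or 79.9-fold, 6.21 with E14 replicate 2 put at its array median, and 6.70 without E14 replicate 3, where this transcript was highest among the E14 arrays. AG-haESC was at least 106-fold higher than MEF. The E14 arrays lay above the MEF arrays without overlap, and no fold is given there because E14 replicate 2 and both MEF arrays read below their medians.

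**Figure D1:**
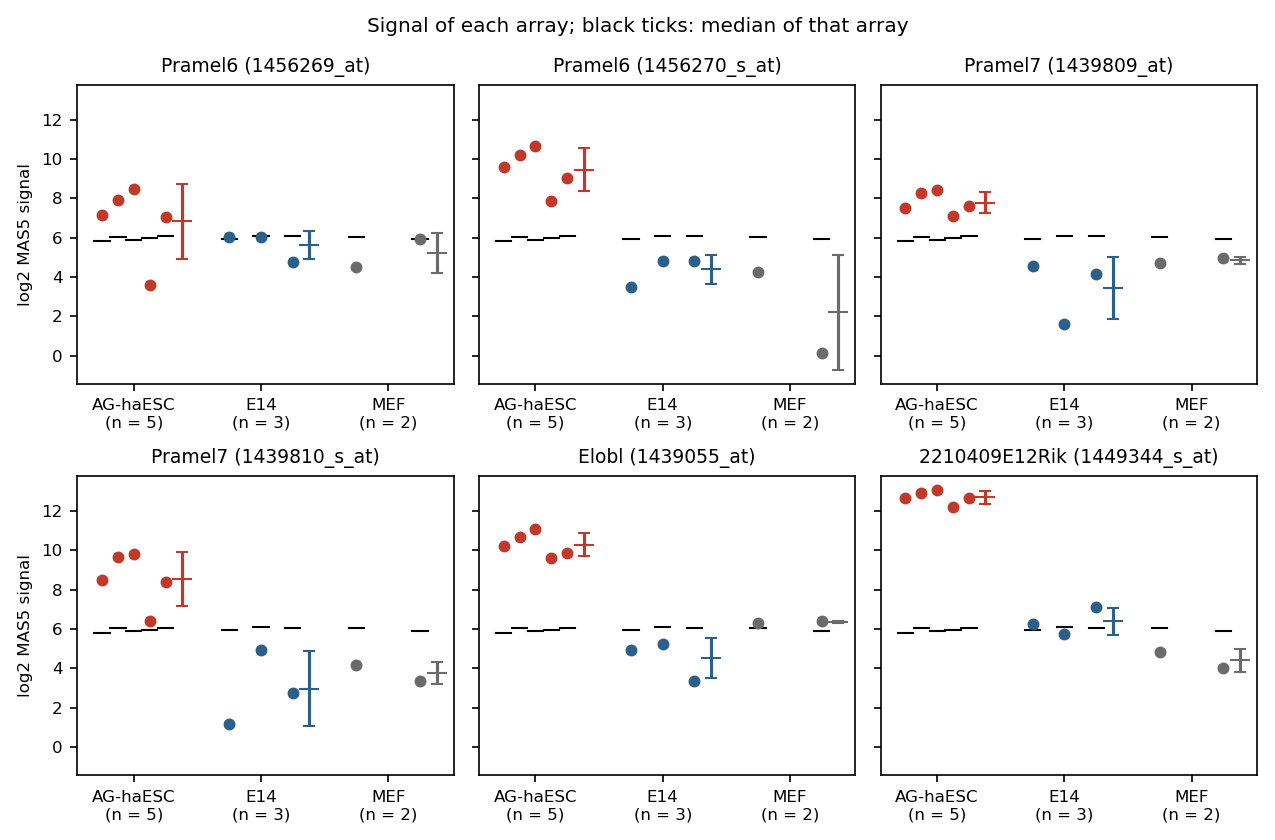
Log2 MAS5 signal (y axis) of the 6 probe sets in each array, by group (x axis); points are arrays, crosses with bars are the mean and SD, and black ticks mark the median of that array. On 5 of 6 probe sets every AG-haESC line lies above every E14 and MEF array and on 1456269_at AGH-OG-3 falls to 3.59.

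Counted over probe sets, all AG-haESC lines lay above all E14 arrays on 5 of 6, and above all MEF arrays on the same 5. Over all 13251 genes, on the probe set used for each, the lines lay above all E14 arrays for 9.87% and above all MEF arrays for 34.6%. On the signals as deposited, Elobl and 2210409E12Rik also separated E14 from MEF, in opposite directions. For 2210409E12Rik, E14 replicate 2 and both MEF arrays lay below their array medians, so that separation rests in part on signals not taken as measured levels. E14 lay above MEF, as for 2210409E12Rik, for 38.2% of all genes. The share with MEF above E14, the direction of Elobl, was not counted, and all E14 signals of Elobl lay below the array medians. Since the genes were picked with these contrasts known, nothing is read from the count of member probe sets. All 6 probe sets passed the filter on low signals, a signal above the array median in at least 2 arrays. For 1456270_s_at, 1439810_s_at and 1439809_at of the Pramel genes the AG-haESC lines alone met it, while 1456269_at was also above the median in 1 E14 and 1 MEF array. In order of mean signal within each gene, Pramel6 and 2210409E12Rik ran AG-haESC, E14, MEF and Pramel7 and Elobl ran AG-haESC, MEF, E14. On the main probe sets of Pramel6 and Pramel7 the E14 and MEF ranges overlapped and all lay below the array medians, so E14 and MEF are not ordered there. Fewer cells with a transcript and less of it per cell cannot be told apart in these bulk samples.

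The 5 haploid lines kept nearly the same order on every probe set. AGH-EG-1 was the highest and AGH-OG-3 the lowest line on 6 of 6 probe sets, as on 5.12% of the 23911 kept probe sets with 1 symbol, and AGH-OG-2 stood next to AGH-EG-1 on all of them. The span from the lowest to the highest line was 7.05-fold for Pramel6 on 1456270_s_at, 10.6-fold and 2.44-fold for Pramel7 on 1439810_s_at and 1439809_at, 2.75-fold for Elobl and 1.83-fold for 2210409E12Rik. It was 29.2-fold on 1456269_at, where AGH-OG-3 lay below its array median.

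The order also ran with the passage number in the labels, an arrangement seen only after the values were known. AGH-OG-3 was taken at passage 12, AGH-OG-1 and AGH-OG-4 at passage 14 and AGH-EG-1 and AGH-OG-2 at passage 15. On 6 of 6 member probe sets, and so for 4 of 4 genes, both lines of passage 14 lay above AGH-OG-3 and both lines of passage 15 lay above those of passage 14. The same order was found for 5.15% of the 13251 genes and for 4.94% of 23911 kept probe sets with 1 symbol, and the opposite order for 6.69% and 6.06%. Members of a pair share a locus and Pramel6 and Pramel7 may share probes, so the 6 probe sets are not independent observations. Passage 12 was represented by a single line, and passage and line cannot be told apart. E14, at passage 17, also differs from these lines in ploidy, parental origin and strain, so its signals, given above, cannot be placed in this order. The summed fibroblast marker signal was also highest in both lines of passage 15, with 8707 in AGH-OG-2 and 5520 in AGH-EG-1, but AGH-OG-3 (2784) lay between the lines of passage 14, AGH-OG-1 (2478) and AGH-OG-4 (4837). In MEF, where that sum was at least 130170, 3 of the 4 genes read below the array median on their main probe set and Elobl read at most 84.5. The part of fibroblast cells in the signals of the 4 genes was not tested.

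**Figure D2:**
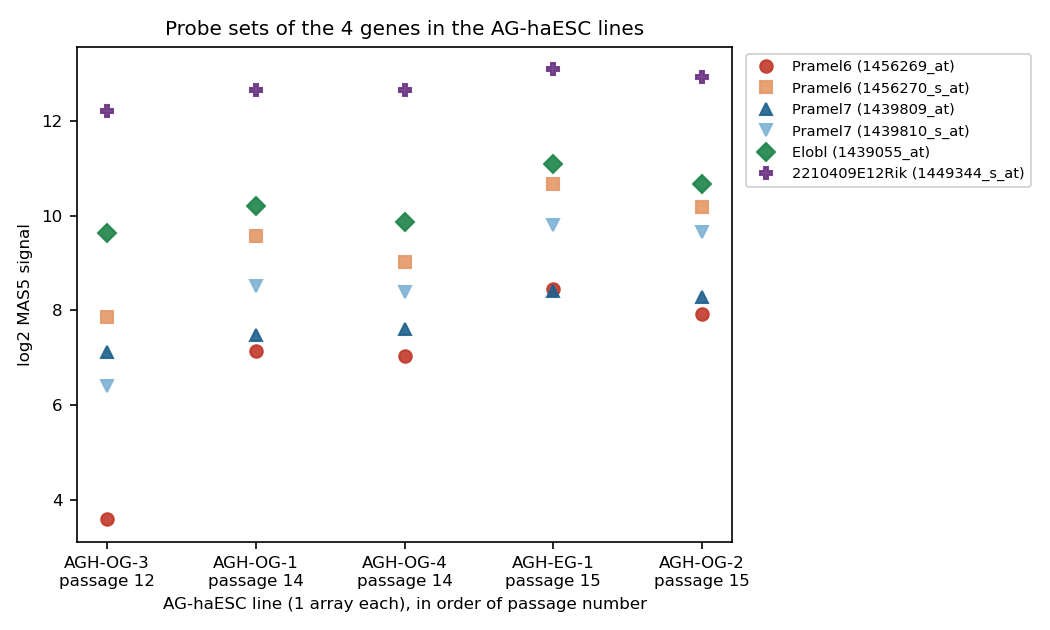
Log2 MAS5 signal (y axis) of the 6 probe sets in the 5 AG-haESC lines, 1 array each, placed in order of passage number (x axis). On each probe set the line of passage 12 is lowest and both lines of passage 15 are above both lines of passage 14.

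None of the 16 nearest tested neighbours was called between AG-haESC and E14. No annotated gene lies between the members of either pair. On chromosome 11 the genes next to the pair are Scpep1, a serine carboxypeptidase, and Coil, which encodes the Cajal body protein coilin. Scpep1 was at 12.71 ± 0.21 (mean log2 signal, SD) in the haploid lines and at 13.04 ± 0.21 in E14, and the fitted difference was -0.33 ± 0.14 (SE; adjusted p = 0.125, limma). Coil was at 11.89 ± 0.19 and 11.30 ± 0.0053, a difference of 0.59 ± 0.14 that passed the adjusted p (0.0142, limma) but stayed below 2-fold. Of the 8 nearest tested genes on chromosome 11 (Mrps23, Msi2, Akap1, Scpep1, Coil, Trim25, Dgke and Dgkeos), 0 were called, against 8.32% of all genes tested, and 5 had an unadjusted p below 0.05, against 30.6% of all genes. Msi2, which encodes an RNA-binding protein of stem cells, passed the adjusted p alone besides Coil, at -0.82 ± 0.17 (adjusted p = 0.00791), but averaged over its probe sets it differed by -0.091 (adjusted p = 0.879). Averaged in the same way Dgke, a diacylglycerol kinase, was called at 1.03 (adjusted p = 0.0111), against 0.15 on its main probe set.

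The Pramel pair lies inside a long stretch of olfactory receptor genes. Before Pramel7 there were 162 annotated genes to the first gene with a tested probe set, 138 of them with an olfactory receptor symbol, and after Pramel6 there were 174, 155 of them olfactory receptors. The 8 nearest tested genes (Slc43a1, Slc43a3, P2rx3, Tnks1bp1, Ptprj, Nup160, Fnbp4 and Mtch2) thus lie outside this stretch, and 0 of them were called by limma, 3 with an unadjusted p below 0.05, beside 8.32% and 30.6% of all genes. Slc43a1, an amino acid transporter, was the 1 that passed the adjusted p alone (0.67 ± 0.20, adjusted p = 0.0406). The median difference was -0.14 over the neighbours on chromosome 2 and -0.082 over those on chromosome 11, beside -0.082 over all genes tested.

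**Figure D3:**
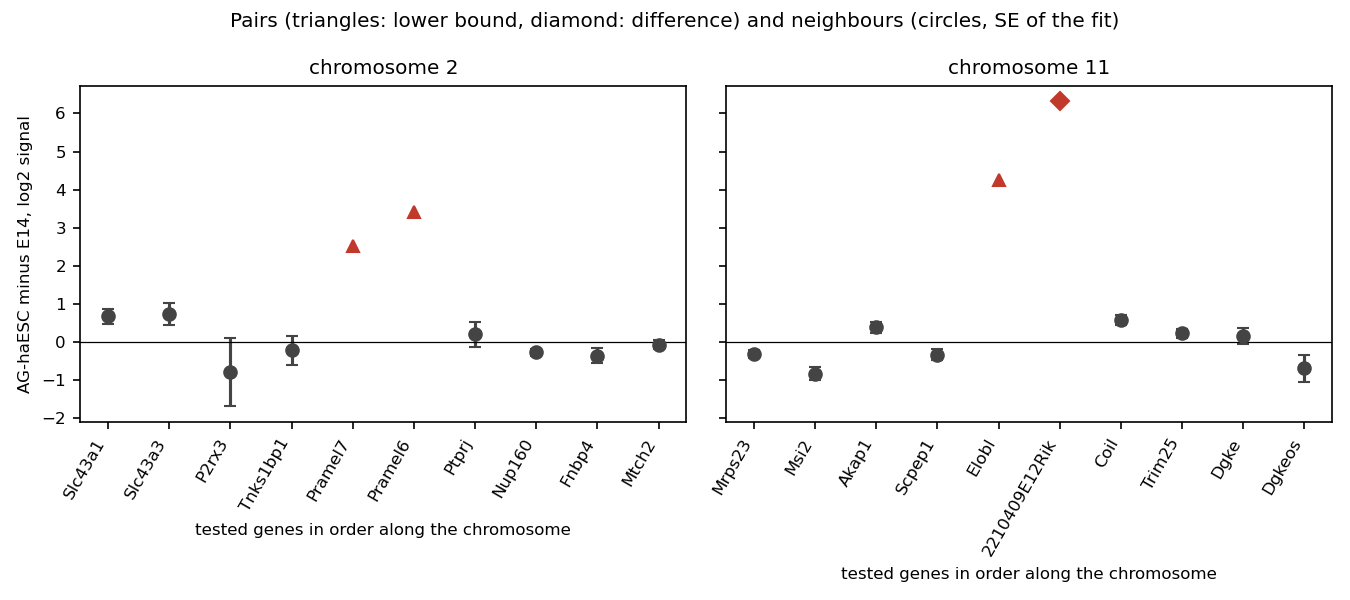
Difference between AG-haESC and E14 in log2 signal (y axis) for the 2 pairs and their 4 nearest tested genes on each side in chromosome order (circles, bars are the SE of the fit). Triangles are lower bounds, with E14 at its array medians, of 2.52 for Pramel7, 3.42 for Pramel6 and 4.26 for Elobl, the diamond is the difference of 6.32 for 2210409E12Rik, and the neighbours lie between -0.82 and 0.74.

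Other genes of the PRAME family were mostly too dim to be measured. Besides Pramel6 and Pramel7, 12 family genes had a probe set of their own, and 4 of these passed the filter: Prame, Pramel12, Pramel13 and Pramel18. Of the 4, 0 were called between AG-haESC and E14, 1 having an unadjusted p below 0.05, beside 8.32% and 30.6% of all genes, and their median difference was 0.61 beside -0.082 over all genes. That median rests partly on signals below the array median. With such signals put at the median, Prame differed by -0.043 and Pramel18 by -0.079. Pramel12 was at 9.30 ± 0.47 in AG-haESC (n = 5), 8.35 ± 0.20 in E14 (n = 3) and 8.87 ± 0.18 in MEF (n = 2), a difference of 0.95 ± 0.25 between the stem cell groups that passed the adjusted p (0.0258, limma) below 2-fold. It was called without AGH-OG-3 (1.13, adjusted p = 0.00342) or without E14 replicate 3 (1.04, adjusted p = 0.0224). The other Pramel12 probe sets, 1 of which became the brightest when AGH-OG-1 or AGH-OG-2 was left out, showed less: the difference was then 0.29 and 0.23, and averaged over its probe sets it was 0.35 (adjusted p = 0.319). AGH-OG-3 was the lowest line for Pramel12 too, at 380 on the linear scale against 573 to 873 in the other lines.

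Pramel13 showed a different pattern, at 9.01 ± 0.48 in AG-haESC and 8.74 ± 0.093 in E14 (0.27 ± 0.27, adjusted p = 0.542), with both MEF arrays below their medians. It and Pramel18 were called higher in both stem cell groups than in MEF, where 19.7% of all genes were called higher in AG-haESC and 20.9% in E14. Pramel18 lay below the array median in 4 of 5 AG-haESC lines, 2 of 3 E14 arrays and both MEF arrays. Its calls against MEF thus rest largely on signals not taken as measured levels. It differed from E14 by -0.60 ± 0.84 (adjusted p = 0.669), and Prame, below the median in all E14 arrays and 3 lines, by 1.03 ± 0.67 (adjusted p = 0.331). The remaining 8 genes, among them the oocyte genes Oog3 and Oog4, did not exceed the array median in 2 or more arrays.

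**Figure D4:**
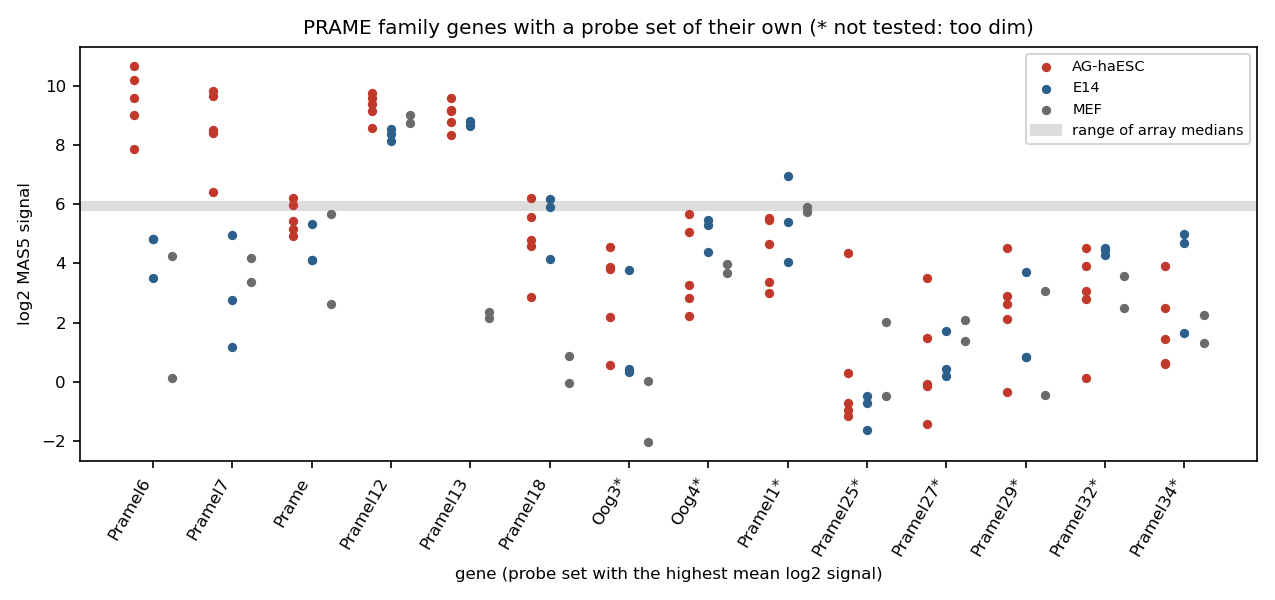
Log2 MAS5 signal (y axis) of each array for the 14 PRAME family genes with a probe set of their own (x axis), on the probe set with the highest mean; the grey band is the range of array medians and an asterisk marks genes that failed the filter. Pramel6 and Pramel7 separate AG-haESC from E14, Pramel12 lies near 9 in all groups and Pramel13 is low in MEF alone among the groups.

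A list of 26 elongin BC and cullin-RING ligase genes was examined. It reaches beyond the ligases with which PRAME-type receptors work, to genes such as Cul3, Cul5 and Socs3. Of 24 measured genes of the elongin BC and cullin-RING ligase list, 0 were called higher and 0 lower in AG-haESC than in E14, with a median difference of 0.015 beside -0.082 over all genes, and 1 passed the adjusted p alone (3 at an unadjusted p below 0.05, limma), where 8.32% of all genes were called, 15.9% passed the adjusted p and 30.6% the unadjusted p. Elob, which encodes elongin B itself, was at 14.01 ± 0.11 and 13.82 ± 0.15, a difference of 0.19 ± 0.093 (SE; adjusted p = 0.202). Eloc, its partner elongin C, differed by 0.069 ± 0.084 (adjusted p = 0.617), and Nedd8, the modifier that activates cullins, by 0.11 ± 0.083 (adjusted p = 0.408). Fem1b, a substrate receptor of cullin 2 ligases, differed by 0.024 ± 0.11 (adjusted p = 0.907). Cul2, named for its role and not by the naming rule, was at 11.85 ± 0.065 and 11.91 ± 0.049, a difference of -0.058 ± 0.092 (adjusted p = 0.714). The 1 gene past the adjusted p was Klhdc10, another receptor subunit, at -0.51 ± 0.16 (adjusted p = 0.0471), which was -0.071 (adjusted p = 0.803) averaged over its probe sets.

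Genes of DNA methylation, the process that UHRF1 serves, gave 0 calls among 11 measured members and 5 at an unadjusted p below 0.05 (limma), beside 8.32% and 30.6% of all genes. Their median difference was -0.32, beside -0.082 over all genes. Uhrf1 RNA was at 12.89 ± 0.14 in the haploid lines and at 13.15 ± 0.049 in E14, and differed by -0.26 ± 0.13 (adjusted p = 0.192, limma), and the arrays do not measure its protein. Pcna, the replication clamp, passed the adjusted p at -0.37 ± 0.095 (0.0238) below 2-fold. Hells, a chromatin remodeller, differed by -0.32 ± 0.13 (adjusted p = 0.134) and Usp7, a deubiquitinase, by 0.025 ± 0.15 (adjusted p = 0.933). Without E14 replicate 3 the list had 1 called member, Dnmt3l.

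Of the 13 genes of the LIF and STAT3 list, 0 were higher and 1 was lower in AG-haESC, with a median difference of -0.096 beside -0.082 over all genes, of which 4.58% were called higher and 3.74% lower. The lower gene was Junb, a subunit of the AP-1 transcription factor, at 6.98 ± 0.21 against 8.25 ± 0.21, a difference of -1.26 ± 0.19 (adjusted p = 0.0013). Socs3, a feedback inhibitor induced by STAT3, differed by -0.096 ± 0.22 (adjusted p = 0.811), Klf4 by 0.30 ± 0.24 (0.436) and the kinases Pim1 and Pim3 by 0.63 ± 0.22 (0.0732) and -0.12 ± 0.13 (0.579). Stat3, named for its role and not by the naming rule, differed by -0.21 ± 0.20 (adjusted p = 0.503). Tfcp2l1, a naive-state transcription factor, differed by 1.14 ± 0.39 (adjusted p = 0.0732), and was called without E14 replicate 3 (1.38, adjusted p = 0.0414).

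Of 27 genes of the 2-cell stage list, 8 could be tested, and 0 were higher and 1 lower in AG-haESC, with a median difference of -0.043, against the same shares of all genes. The Zscan4 genes, Dux, Zfp352 and Tdpoz4 were among those not tested. Arg2 and Sp110 lay below the array median in 4 of 5 AG-haESC lines, and Tcstv1 in all E14 arrays. The median thus includes signals not taken as measured levels and does not cover the untested genes. The lower gene was Usp17la, a deubiquitinase, at 7.45 ± 0.57 against 8.58 ± 0.32 (-1.13 ± 0.34, adjusted p = 0.0423). Its call was lost without any 1 of AGH-OG-2, AGH-EG-1, AGH-OG-3 and AGH-OG-4 or of the first and second E14 arrays, with adjusted p from 0.0509 to 0.139. Dppa2, a factor active at the onset of embryonic transcription, differed by 0.97 ± 0.40 (adjusted p = 0.127) and was called without E14 replicate 3 (1.51, adjusted p = 0.00889). Dppa4 differed by -0.080 ± 0.26 (0.871), Eif1a by 0.17 ± 0.13 (0.407) and Eif1ad by -0.0062 ± 0.14 (0.982).

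The genes with profiles most like those of the members were found by the root-mean-square difference between log2 profiles, each centred on its own mean. They were selected for likeness to genes already picked for their difference, so no test is given. Over all 10 arrays, 2210409E12Rik was the gene closest to Pramel6 (1.14 log2 units), followed by Nlrp4f, Rhox9, H2-Eb1 and AI662270 (1.17 to 1.28). Pramel7 was closest to Ubd (0.95), then to Elobl (1.11), H2-Eb1, Olig2 and Gpat3. Elobl was closest to Gpat3 (0.60), then to Cd3d, Trim34a, AA467197 and Olig2. The genes closest to 2210409E12Rik were Rhox9 (1.10), AI662270, Mep1b, Pramel6 and Nlrp4f.

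Over the 8 stem cell arrays alone, Pramel6 was the gene closest to Pramel7 (0.77), followed by E330016L19Rik, Ubd, Vnn1 and H2-Eb1. The nearest to Pramel6 were Ubd (0.57), Il6, Trim12a, Vnn1 and Xaf1. For Elobl they were Gpat3 (0.65), Vnn1, Olfml1, AA467197 and Nlrp4f, and for 2210409E12Rik they were Trim12a (0.38), Xaf1, Cd3d, Elobl and Pramel6. The members of a pair were thus among the 5 nearest of each other in the stem cell arrays in 1 direction only, Pramel6 for Pramel7 and Elobl for 2210409E12Rik. Over all 10 arrays, no member was among the 5 nearest of the other member of its pair. Trim12a lay below the array median in all E14 arrays and read above it in both MEF arrays, unlike 2210409E12Rik, which lay below it in MEF. Il6 lay below the array median in 4 of 5 AG-haESC lines and in all E14 arrays. Its likeness to Pramel6 thus rests largely on signals not taken as measured levels. The limit is wider than Il6. Pramel6, Pramel7 and Elobl lay below the array median in all E14 arrays on their main probe sets. So did Ubd, H2-Eb1, Cd3d, Olig2, Vnn1, Gpat3, E330016L19Rik, Olfml1 and Trim34a. The ranks of these genes, over both sets of arrays, rest in part on signals not taken as measured levels.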

How the data were processed

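The members and gene lists were chosen with earlier results of these data known. The deposited intensities, 1 column per array, were made by the authors with MAS5, per the submitters' processing notes; the sources used here give neither its version nor detection calls. Their trimmed means lay between 496 and 497, so values are relative within an array. Of 45101 probe sets, 64 controls were left out; 34945 carried 1 symbol, 932 several and 9160 none listed. Signals were taken to log2 and not renormalized. Probe sets above the array median in at least 2 arrays were kept (27505), and the one with the highest mean log2 signal stood for each gene (13251). Tests used limma 3.58.1 under R 4.3.3 (10 arrays, 3 group means, variance trend), tested on simulated data, with two-sided p-values adjusted by Benjamini-Hochberg over all genes. A call needs an adjusted p below 0.05 and at least 2-fold. Differences carry the SE of the fit. Where a group lay wholly below the array medians, it was put at them and the fold given as "at least". Named were all member probe sets, called list genes with the 4 brightest others, the 4 nearest tested genes on each side and the 5 nearest profiles; exceptions are marked. Gene order, names and promoters came from RefSeq tables of GRCm38.p6. E14 arrays and MEF arrays are labelled biological replicates; whether MEF came from separate embryos is not given, so p-values measure the spread between these samples. The number of arrays limits the precision. Protein comparisons were not analysed here.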

Additional observations from a re-analysis of the deposited data

How the results depend on the processing

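For AG-haESC against E14 and against MEF, the differences of all 4 genes kept their sign under every alternative run: a pseudocount, a floor, quantile normalization, the mean of probe sets and each array left out. Their size depended on how signals below the array median were treated. With log2(signal + 32) the difference from E14 was 3.79 for Pramel6, 3.27 for Pramel7 and 4.50 for Elobl, and that from MEF was 4.18 for Pramel6, 3.20 for Pramel7 and 6.97 for 2210409E12Rik, whose E14 minus MEF difference was 1.13. With a floor at the array median the difference from E14 was 3.42 for Pramel6, 2.52 for Pramel7 and 4.26 for Elobl, and that from MEF was 3.48, 2.58 and, for 2210409E12Rik, 6.73. E14 minus MEF was then -0.33 for Elobl, 0.51 for 2210409E12Rik and 0.054 for Pramel7, a reversal of its -0.80. Leaving out each array gave Pramel7 E14 minus MEF from -1.80 to 0.095 (reversed without E14 replicate 1), and AG-haESC minus E14 from 4.64 to 5.48 for Pramel6, 4.69 to 6.59 for Pramel7, 5.19 to 6.15 for Elobl and 6.01 to 6.70 for 2210409E12Rik. Without a MEF array the remaining one was assumed to vary like the other groups, and Pramel6 AG-haESC minus MEF ranged from 5.20 to 9.33. With the mean of probe sets Pramel6 differed from E14 by 3.15. The count of genes called for AG-haESC against E14, 1102, lay between 844 and 1341 with an array left out and between 929 and 1106 under the other alternatives. Calls of named genes and list counts were also recomputed, as alternatives chosen after seeing the data. Usp17la was also lost with no filter, with no trend (adjusted p = 0.0595 and 0.0559) and with log2(signal + 32), at -0.997 and thus below 2-fold, and Cd14 fell to 0.79 with the floor. Tfcp2l1 was also called with log2(signal + 32), the floor, quantile normalization and a 2-group fit (adjusted p between 0.00195 and 0.0494). E14 and MEF share replicate numbers 1 and 2, but r of their deviations was -0.026, so the numbers were not taken as pairs. A replicate block gave 5501 calls for E14 against MEF in place of 5581. Only E14 has a replicate 3, so the block gave the same E14 minus MEF differences of the 4 genes as leaving that array out.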
